A study of Mus musculus with 10 samples.

Results

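Genomic imprinting keeps 1 parental copy of a gene silent, and the memory of which parent a copy came from is carried by DNA methylation at an imprint control region. Most control regions are methylated in the egg. A small set is methylated in the male germ line instead, in the fetal precursors of spermatogonia, and the sperm hands that mark to the embryo. The H19, Dlk1-Meg3 and Rasgrf1 control regions belong to this set. At the H19 region the unmethylated maternal copy binds the insulator protein CTCF, which keeps enhancers away from Igf2, whereas the methylated paternal copy lets Igf2, a fetal growth factor gene, be expressed and keeps H19, a non-coding RNA gene, silent. At the Dlk1-Meg3 region methylation goes with expression of Dlk1, which encodes a Notch-like transmembrane protein, from the paternal copy, and the unmethylated copy expresses Meg3, a non-coding RNA. At Rasgrf1, which encodes a Ras exchange factor, the methylated paternal copy is the expressed one in neonatal brain.

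The control regions were taken as 3 windows of the mm10 genome: chr7:142579000-142583000 for H19, chr12:109525000-109531000 for Dlk1-Meg3 and chr9:89869000-89885000 for Rasgrf1. Every CpG cytosine read at least 5 times in both libraries was a member. This gave 101 cytosines of 6745376 in the whole table: 13 cytosines in 9 CpGs at H19, 38 in 25 CpGs at Dlk1-Meg3 and 50 in 34 CpGs at Rasgrf1. The windows were compared with the spans of the 5 genes they govern, H19, Igf2, Dlk1, Meg3 and Rasgrf1, each with 5 kb on either side.

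The assay was reduced-representation bisulfite sequencing. It reads the short fragments between restriction sites and scores each cytosine as methylated or not. The 2 libraries came from spermatogonia of postnatal day 6 male pups that carry an Id4-eGfp transgene (line LT-11B6, C57BL/6 background), in which EGFP reports activity of Id4, a gene of undifferentiated spermatogonia. EGFP-positive cells of both groups were sorted by an antibody to TSPAN8, a tetraspanin of the cell surface, into the most strongly stained (TSPAN8-high) and the most weakly stained positive cells (TSPAN8-low). Each group was 1 library from 300 ng of DNA of 5 pooled sorts, with no untreated or unsorted library for methylation, and the other 8 samples of the series, histone and input libraries, were not analysed here. A test between the groups therefore compares 2 libraries and not 2 conditions. Every interval covers counting error only, and is too narrow where a read covers several CpGs, since it counts at each. Where a pair of values stands with no group named, the first is TSPAN8-high and the second TSPAN8-low, and a difference is the first minus the second, in percentage points.

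The libraries held 83658949 (high) and 83773700 (low) reads over the listed cytosines, a median of 10 reads a cytosine in each. Methylation averaged over all cytosines was 74.3% and 74.4%. Starts of germ cell genes, which are unmethylated in germ cells, were low in both libraries: 2.48% and 1.40% at Dazl, 2.07% and 0.903% at Ddx4, 1.16% and 1.89% at Sycp3, 3.31% and 5.25% at Mael, and 2.95% and 1.06% at Tdrd1 start 1. The start of Tex101 was higher, at 12.3% and 15.6%, and Tdrd1 start 3, further downstream, was at 96.6% and 95.6%. Maternally methylated imprints, which are erased in the male germ line and carried on 1 of the parental copies in somatic cells, are given below with the control regions.

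Bases of the control regions themselves were not used here, so sequence is shown for the member promoters at which methylation was read. The 250 bases before an annotated start are from RefSeq (GRCm38.p6), 5′ to 3′ on the strand of the gene, and capitals mark the CpGs that were measured. They show the unmethylated class of CpG against which the control regions stand.
Igf2 start 3, chr7:142658805-142659054, minus strand: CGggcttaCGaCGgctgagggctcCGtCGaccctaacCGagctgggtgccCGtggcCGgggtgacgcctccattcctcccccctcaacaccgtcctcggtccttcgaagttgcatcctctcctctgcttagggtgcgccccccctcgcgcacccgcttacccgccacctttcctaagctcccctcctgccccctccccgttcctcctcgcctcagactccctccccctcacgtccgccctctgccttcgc
Meg3 start 1, chr12:109540746-109540995, plus strand: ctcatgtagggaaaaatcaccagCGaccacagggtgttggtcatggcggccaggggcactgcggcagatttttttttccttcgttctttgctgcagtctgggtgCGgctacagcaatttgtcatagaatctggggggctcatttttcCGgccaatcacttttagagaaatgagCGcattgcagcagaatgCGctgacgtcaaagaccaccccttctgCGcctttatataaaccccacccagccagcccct

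In the Igf2 stretch 8 of 22 CpGs were measured, and 4 of 186 reads were methylated in TSPAN8-high (2.15%) and 0 of 162 in TSPAN8-low, which allows a level of up to 1.85%. In the Meg3 stretch 6 of 10 CpGs were measured, with 3 of 68 methylated reads (4.41%) in TSPAN8-high and 3 of 49 (6.12%) in TSPAN8-low. Both promoters were thus nearly free of methylation at the CpGs that were read. The same 250 bases of the other annotated starts of Igf2, Dlk1, Meg3 and Rasgrf1 held no measured CpG, and H19 had no entry in the promoter table.

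The H19 control region was methylated at nearly every read in both libraries. Of its reads, 190 of 193 were methylated in TSPAN8-high (98.4%, exact 95% Clopper-Pearson interval 95.5 to 99.7%) and 200 of 206 in TSPAN8-low (97.1%, 93.8 to 98.9%). The difference was 1.36 points (95% Newcombe interval −1.95 to 4.81). All 13 cytosines were at 80% or more in both libraries, and 10 of them were at 100% in both. The other 3 were split in direction. The minus-strand cytosine at 142582679 had 18 of 18 methylated reads in TSPAN8-high and 18 of 22 in TSPAN8-low, and that at 142581430 had 12 of 12 and 16 of 18. The plus-strand cytosine at 142582678, the other strand of the first of these CpGs, had 29 of 32 and 28 of 28. Thus the 2 strands of 1 CpG leaned in opposite directions. So did the strands of the window as a whole, with a difference of −3.12 points (−8.79 to 1.20) on the plus strand and 5.50 points (0.682 to 11.5) on the minus strand, an interval that leaves out 0. All unmethylated reads of the minus strand were in TSPAN8-low, at the 2 minus-strand cytosines named above.

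The 13 cytosines covered only the stretch from 142581043 to 142582679, 2 of the 8 bins of 500 bp in the window. No gene of the annotation overlaps the window: the span of H19 lies 854 bp away on the lower-coordinate side and Igf2 lies 67.8 kb away on the other. In tiles of 1 kb, the tile nearer H19 was at 100% and 98.2%, and the tile nearer Igf2 at 97.6% and 95.9%.

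At Dlk1-Meg3 the control region was also methylated almost throughout. Of its reads, 577 of 605 were methylated in TSPAN8-high (95.4%, 93.4 to 96.9%) and 616 of 634 in TSPAN8-low (97.2%, 95.6 to 98.3%). The difference of −1.79 points had an interval of −4.02 to 0.345. Of the 38 cytosines, 34 were at 80% or more in both libraries and none was under 20% in both. The other 4, at 109525712, 109525713, 109525755 and 109528347, were each between 75.0% and 77.8% in TSPAN8-high and at 100% in TSPAN8-low, with 5 to 18 reads. The cytosine at 109525755 had the most reads of these, 14 of 18 methylated against 10 of 10. The next largest fall among cytosines with at least 10 reads in both was at 109528346, with 10 of 12 and 16 of 16. The largest rises were at 109528172, 25 of 25 against 16 of 18, and at 109528168, 24 of 24 against 16 of 17. In all, 9 cytosines were higher in TSPAN8-high, 14 were lower and 15 were equal.

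The first 1-kb tile of the Dlk1-Meg3 window had the largest fall, from 97.9% in TSPAN8-low to 93.3% in TSPAN8-high. It did not pass the test (Fisher's exact test, p = 0.0202, adjusted p = 0.430 over 585220 tiles). The tile with the largest rise was the last, at 97.4% against 92.9%, and the 5 tiles together spanned 92.9% to 100%. The window lies inside the non-coding RNA gene Gm34081 (chr12:109493125-109540149), which holds all 38 cytosines. Meg3 begins 9996 bp beyond the window and Dlk1 ends 61.7 kb before it. Measured cytosines fell in 10 of the 12 bins of 500 bp, so this was the most evenly covered of the 3 windows.

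The Rasgrf1 control region was lower as a whole and uneven within. Of its reads, 461 of 555 were methylated in TSPAN8-high (83.1%, 79.7 to 86.1%) and 444 of 544 in TSPAN8-low (81.6%, 78.1 to 84.8%). The pooled difference was 1.45 points (−3.07 to 5.96), and the difference of the means over cytosines (82.7% and 83.4%) was −0.669 points, of the opposite sign. Of 50 cytosines, 35 were at 80% or more in both libraries, 1 was under 20% in both, and 14 were in neither class.

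**Figure D1:**
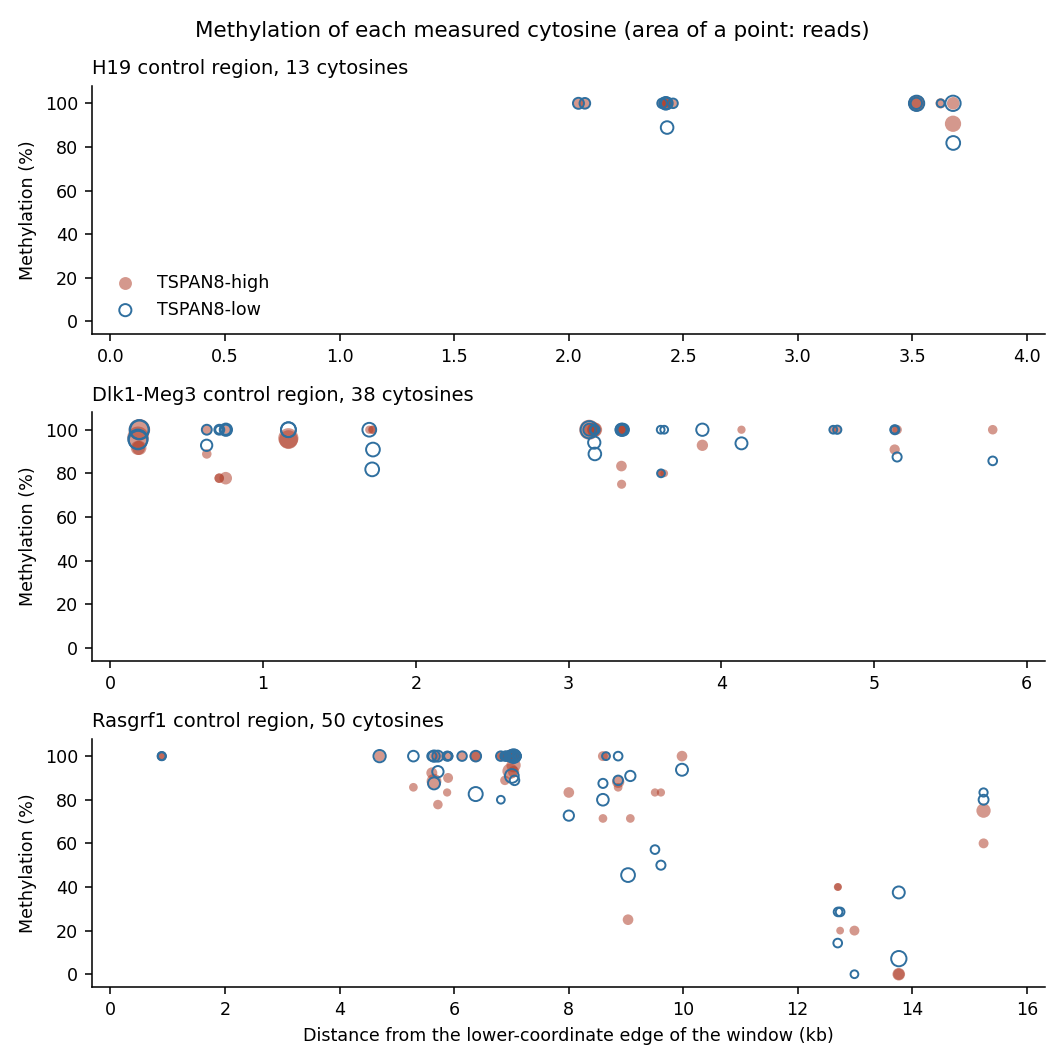
Methylation (%, vertical axis) of each measured cytosine against its distance in kb from the lower-coordinate edge of its window, with filled red points for TSPAN8-high, open blue points for TSPAN8-low and the area of a point showing its reads. The H19 and Dlk1-Meg3 points lie at 75.0% or above in both libraries, and the Rasgrf1 points below 40% in TSPAN8-high are all beyond 9 kb.

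Most of the lower cytosines lay at the higher-coordinate end, 12 of the 15 that were not at 80% or more in both libraries being in the last 7 kb. The first 9 kb of the Rasgrf1 window, 37 cytosines, were methylated at 400 of 421 reads in TSPAN8-high (95.01%, 92.5 to 96.9%) and 375 of 394 in TSPAN8-low (95.2%, 92.6 to 97.1%), which is the range of the Dlk1-Meg3 region. Coverage was uneven: measured cytosines fell in 14 of the 32 bins of 500 bp of the window. Before 89874290 only the cytosines at 89869896, 89869897 and 89873700 were measured, so most of the first 5 kb was not read. The last 7 kb, 13 cytosines, were methylated at 61 of 134 reads (45.5%, 36.9 to 54.3%) and 69 of 150 (46.0%, 37.8 to 54.3%). The border at 9 kb was chosen after the values were seen, so the contrast describes the window and was not tested. The 2 libraries shared the contrast: their difference was −0.166 points (−3.21 to 2.93) in the first stretch and −0.478 points (−11.9 to 10.998) in the last.

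Within the last stretch, the minus-strand cytosine at 89878038 was methylated at 3 of 12 reads (25.0%) in TSPAN8-high and 10 of 22 (45.5%) in TSPAN8-low. From 89881699 to 89882766, 6 cytosines were low in both libraries, 7 of 57 reads (12.3%, 5.08 to 23.7%) and 13 of 70 (18.6%, 10.3 to 29.7%). The CpG at 89884245 stood higher again, at 18 of 24 and 5 of 6 reads on the plus strand and 6 of 10 and 8 of 10 on the minus strand. In 1-kb tiles the level ran from 98.3% and 97.2% at 7 kb, the highest, through 69.8% and 67.2% at 9 kb to 28.0% and 19.2% at 12 kb, the lowest and the tile with the largest rise in TSPAN8-high. The tile at 5 kb had the largest fall, 90.7% against 96.9%. The largest rises at single cytosines with at least 10 reads were in the methylated stretch, at 89877599 with 10 of 10 against 12 of 15 and at 89875378 with 16 of 16 against 19 of 23. No gene of the annotation overlaps the window, which ends 24.5 kb before Rasgrf1.

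One cytosine stood apart between the libraries. The plus-strand cytosine at 89882765 had 0 of 18 methylated reads in TSPAN8-high, which allows up to 16.7%, and 6 of 16 in TSPAN8-low (37.5%). By Fisher's exact test its unadjusted p was 0.005954 and its adjusted p, over all cytosines, was 1. The minus strand of the same CpG had 0 of 14 and 2 of 28 methylated reads, a smaller difference in the same direction. It was also the only one of the 101 that carries a label of differing methylation in the authors' deposited table, where 1.45% of all cytosines carry one.

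No member cytosine was called as differing between the libraries, with a call defined as an adjusted p under 0.05 (Fisher's exact test, Benjamini-Hochberg over the whole table) and a difference of at least 20 points. Over all cytosines 0.00111% were called (0.000712% higher and 0.0004% lower), so a count of 0 of 101 says nothing particular to the members. At an unadjusted p under 0.05 there was 1 of 101 member cytosines, against 1.46% of all. Of the 13 tiles of the control regions 0 were called with at least 10 points, and 1, the first of Dlk1-Meg3, had an unadjusted p under 0.05. Over all tiles 0.268% were called (0.138% higher and 0.13% lower) and 8.6% had an unadjusted p under 0.05. In simulated data the tile test called 5.5% of tiles lowered by 20 points in TSPAN8-high and 57% of those lowered by 40 points. Only a small part of the tiles, all of intermediate level, was changed there. The Benjamini-Hochberg adjustment was therefore stricter than on the real data, and these shares are not the power of the test as run. Most tiles of the control regions were also more highly methylated than the changed ones. The power at the control-region tiles was therefore not measured, and no conclusion is drawn from their count of 0. The intervals of the whole windows reach from −1.95 to 4.81 points at H19, from −4.02 to 0.345 at Dlk1-Meg3 and from −3.07 to 5.96 at Rasgrf1. They cover counting error only, and are too narrow where a read covers several CpGs.

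**Figure D2:**
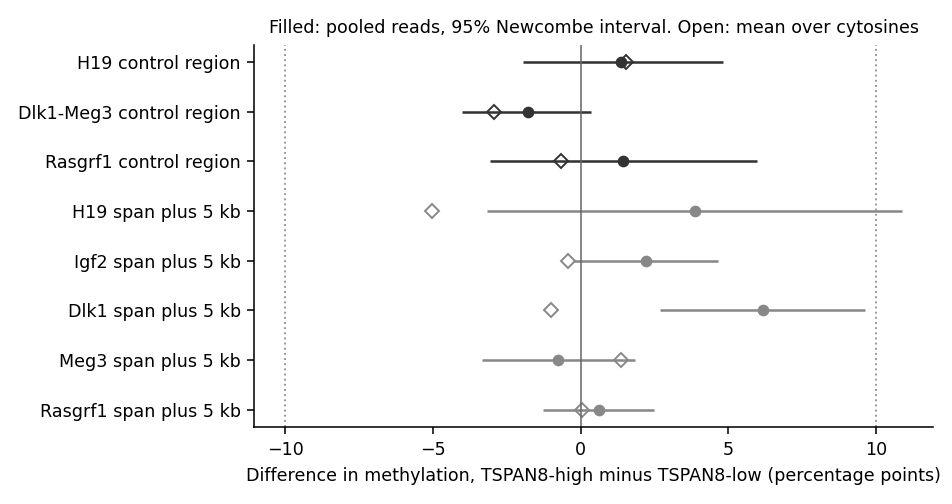
Difference in methylation (TSPAN8-high minus TSPAN8-low, percentage points, horizontal axis) of the 3 control regions (black) and of the 5 gene spans with 5 kb on either side (grey); filled points with lines are pooled reads with 95% Newcombe intervals, open diamonds are differences of the means over cytosines, and dotted lines mark 10 points. The filled points of the control regions lie within 1.79 points of 0, and the diamond of the Dlk1-Meg3 region is at −2.91 points. Of the gene spans only the interval of Dlk1 leaves out 0. The diamonds of the H19, Igf2, Dlk1 and Meg3 spans and of the Rasgrf1 region lie on the other side of 0 from their filled points.

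Set against the whole table, the control regions held more cytosines in the methylated class. In all, 82 of 101 (81.2%) were at 80% or more in both libraries, against 67.5% of all cytosines, and 1 (0.990%) was under 20% in both, against 18.2%. CpG density differed between the members and the table as well. No control-region cytosine had 10 or more listed CpGs within the surrounding 200 bp, a class that averaged 1.75% and 1.73% over the whole table. Among cytosines with 3 to 9 such CpGs, the 50 in the control regions averaged 91.7% and 92.9%, against 67.0% and 67.1% over the whole table. By region these means were 100% and 98.1% at H19 (6 cytosines), 92.7% and 96.8% at Dlk1-Meg3 (20) and 88.9% and 88.3% at Rasgrf1 (24). Among cytosines with at most 2 such CpGs there was no excess: the 51 in the control regions averaged 86.6% and 87.9%, against 89.1% and 89.2%. Of these the Rasgrf1 cytosines were lowest, at 77.0% and 78.8% (26 cytosines), with 98.7% and 97.4% at H19 (7) and 95.7% and 97.3% at Dlk1-Meg3 (18). These are descriptions with no test, since cytosines of 1 window share reads and are not replicates.

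Short unmethylated stretches lay next to 2 of the windows. On the lower-coordinate side of the H19 window, toward H19, the last 1.5 kb before the window were methylated at 9 of 200 reads in TSPAN8-high (4.50%, 2.08 to 8.37%) and 13 of 229 in TSPAN8-low (5.68%, 3.06 to 9.51%). The 500 bp nearest the window were higher, at 6 of 12 and 8 of 12 reads, and no cytosine was measured in the first 2 kb of the window, so the position of the edge was not resolved. Farther out, the bins from 4.25 to 9.25 kb before the window were methylated at 92.1% to 100% in TSPAN8-high. The whole 10 kb on this side were at 50.5% and 49.5%, and the 10 kb beyond the other side of the window at 95.2% and 96.0%. At Rasgrf1, the 1.5 kb before the window were at 5.80% and 4.17% (12 cytosines), and the bins from 2.75 to 9.25 kb before it were again at 90.0% to 100% in TSPAN8-high. The whole 10 kb on this side were at 58.8% and 66.0%, and the 10 kb beyond the window, toward Rasgrf1, at 97.7% and 95.9%, past the low cytosines inside its last 7 kb. The Dlk1-Meg3 window was instead embedded in methylated sequence, with 91.3% and 91.1% in the 10 kb before it.

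**Figure D3:**
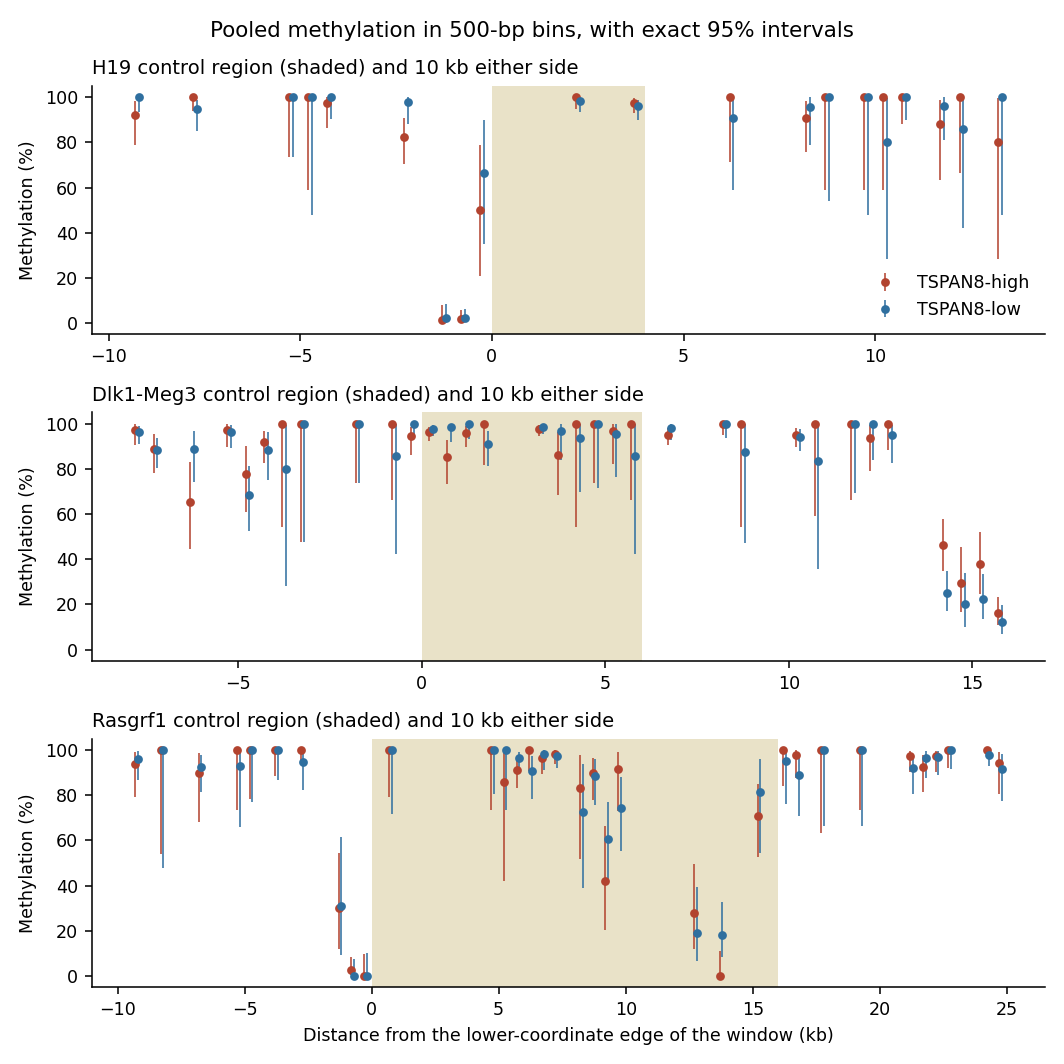
Pooled methylation (%, vertical axis) in bins of 500 bp against the distance in kb from the lower-coordinate edge of each window (shaded), with exact 95% intervals; red is TSPAN8-high and blue TSPAN8-low. Bins under 5% lie within 1.5 kb of the lower edge of the H19 and Rasgrf1 windows, between methylated bins farther out and the window, the Rasgrf1 window has low bins between 12 and 14 kb, and the approach to Meg3 falls from 14 kb onward with the red points higher.

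Of the 10-kb flanks of the 3 windows, the one toward Meg3 had the largest difference between the libraries. The 10 kb beyond the Dlk1-Meg3 window were methylated at 530 of 777 reads in TSPAN8-high (68.2%) and 404 of 697 in TSPAN8-low (58.0%), a difference of 10.2 points (5.32 to 15.1). The first 8 kb of it were alike in level, at 437 of 454 reads (96.3%) and 337 of 350 (96.3%). The last stretch, 14 to 16 kb from the lower edge of the window and reaching the start of Meg3, was at 28.8% (23.9 to 34.1%) and 19.3% (15.3 to 23.9%) over 36 cytosines. This stretch also gave a larger part of the reads in TSPAN8-low, 347 of 697 against 323 of 777, which enters the difference over the whole 10 kb. Its 1-kb tile from 109539001 was at 40.2% and 23.3%. This tile did not pass the test (Fisher's exact test, p = 0.00362, adjusted p = 0.218), and the next, which reaches the start of Meg3, was at 21.9% and 16.2%. The stretch was singled out after its values were seen. Single bins elsewhere differed as much: on the other side of the window, the bin 6.25 kb before it was at 17 of 26 reads (65.4%) and 32 of 36 (88.9%).

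The starts of the imprinted genes were unmethylated while their control regions were methylated. H19 has no start in the promoter table, so both ends of its span (chr7:142575530-142578146) were measured with 1 kb on either side. The end near the control region was at 4.50% and 5.68% (16 cytosines), and the far end at 97.4% and 100% (4 cytosines). Those 16 cytosines are the same as in the 1.5 kb before the H19 window above, so this is not a second observation. Within each library the control region exceeded the near end by 93.9 points (89.1 to 96.3) and 91.4 points (86.4 to 94.2). Igf2 has 4 annotated starts. Start 1, at the higher-coordinate end of the gene, was methylated, 97.5% and 91.1% (6 cytosines). Starts 2, 3 and 4 were not: 2.10% and 2.16% at start 2, 0.870% and 0.709% at start 3, and 8.73% and 7.69% at start 4. The tile from 142659001, in the CpG-dense part around start 3, was at 0.975% and 0.585% over 42 CpGs.

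Dlk1 and Meg3 had the same contrast. The start of Dlk1 had 0 of 238 methylated reads in TSPAN8-high, which allows up to 1.26%, and 4 of 353 (1.13%) in TSPAN8-low. Meg3 start 1 was at 9.29% (7.06 to 11.95%) and 8.23% (6.13 to 10.8%), 86.1 points (82.8 to 88.6) and 88.9 points (85.9 to 91.2) below the control region of the same library. Meg3 start 2, inside the gene, was at 94.4% and 90.3% over 7 cytosines. The start of Rasgrf1 was at 4 of 667 reads (0.600%) and 6 of 590 (1.02%) over 50 cytosines, 82.5 points (79.0 to 85.4) and 80.6 points (76.9 to 83.7) below its control region. At each of these starts the intervals of the 2 libraries overlapped.

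Maternally methylated imprints gave the opposite reading. Around the annotated start with the most listed CpGs, Peg3 was at 0.754% and 0.820%, Snrpn at 1.88% and 1.08%, and Mest at 1.65% and 2.05%. Kcnq1ot1 was at 2.97% (1.74 to 4.72%) and 8.28% (6.01 to 11.1%), a difference of −5.31 points (−8.29 to −2.57). This interval leaves out 0 but is too narrow, since a read covering several CpGs counts at each. The means over its 33 cytosines, 8.53% and 10.9%, differed by −2.34 points. For Snrpn and Mest this start was chosen after the data were seen, because the CpG-richer end of their spans gave other levels, 85.7% and 80.4% at Snrpn (6 cytosines) and 13.2% and 13.4% at Mest. The H19 control region exceeded Peg3 by 97.7 points (94.4 to 98.8) in TSPAN8-high and 96.3 points (92.6 to 97.9) in TSPAN8-low, and the Rasgrf1 region exceeded Kcnq1ot1 by 80.1 points (76.3 to 83.2) and 73.3 points (68.9 to 77.0). The share of somatic cells in either sort was not estimated.

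**Figure D4:**
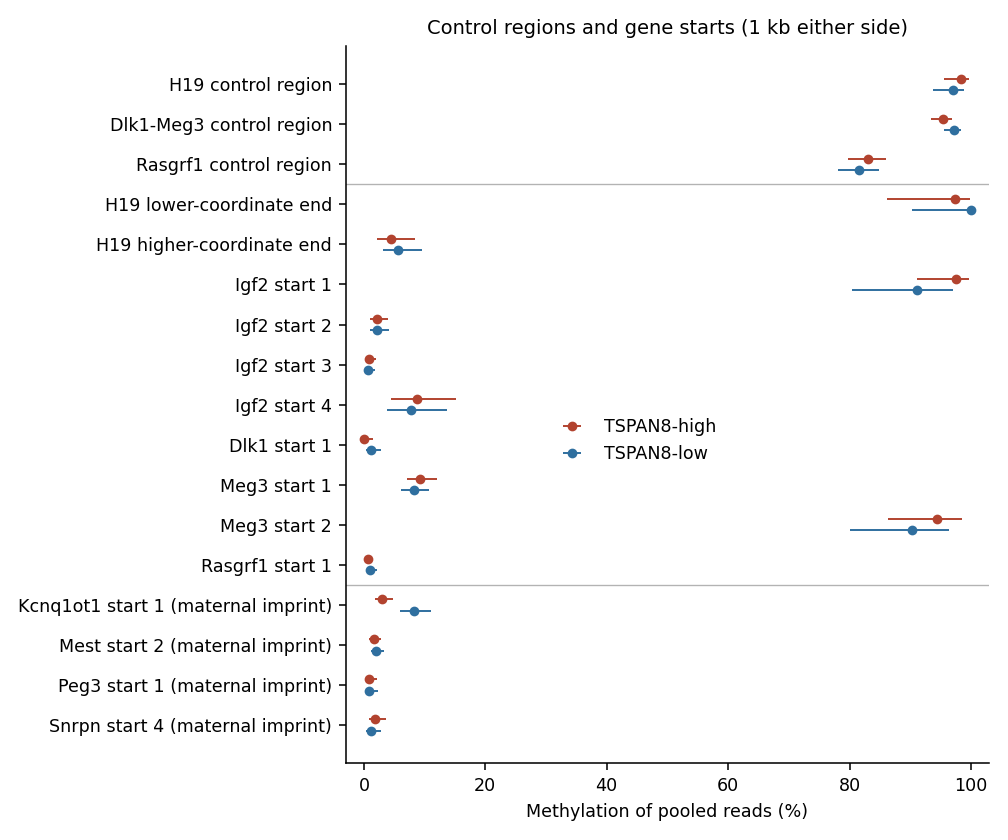
Methylation of pooled reads (%, horizontal axis) in the control regions, within 1 kb of the starts or ends of the 5 genes and at the starts of 4 maternally methylated imprints, with exact 95% intervals; red is TSPAN8-high and blue TSPAN8-low. The 3 control regions lie above 80% and most starts below 10%, the exceptions being the far end of H19, Igf2 start 1 and Meg3 start 2.

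Across whole genes the picture was mixed rather than uniformly methylated. Over each gene span with 5 kb on either side, leaving out the control windows, H19 was at 46.3% and 42.4% (35 cytosines). Igf2 (chr7:142650768-142666816) was at 29.2% and 27.04% (196 cytosines), the lowest of the 5, with 121 cytosines under 20% in both libraries and 39 at 80% or more. Meg3 (chr12:109540996-109571729) was at 63.8% and 64.5% (232 cytosines), with 134 cytosines at 80% or more in both and 56 under 20%. Rasgrf1 (chr9:89909508-90026979) was at 68.7% and 68.1% (375 cytosines), with 259 and 87.

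Dlk1 (chr12:109452485-109463336) was at 762 of 1480 reads (51.5%) in TSPAN8-high and 766 of 1690 (45.3%) in TSPAN8-low. The difference of 6.16 points (2.67 to 9.63) was below 0.05 after adjustment over 46465 genes (Fisher's exact test with Benjamini-Hochberg, adjusted p = 0.00931). It was below the 10 points that a call required, and the means over its 129 cytosines ran the other way, 41.5% and 42.5%. The pooled value weights each cytosine by its reads in a library, and the mean weights all alike. With at least 10 reads a cytosine the difference was 5.85 points (adjusted p = 0.0779 by Fisher's exact test), and without the 5 kb on either side 5.61 points (adjusted p = 0.109), so the adjusted p stayed under 0.05 in neither. Over all genes, 11.5% had an adjusted p under 0.05 at any difference.

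None of the 5 gene spans was called, against 1.14% of all genes called. By Fisher's exact test H19 differed by 3.89 points (−3.16 to 10.9, adjusted p = 0.593) with its means over cytosines at 53.2% and 58.3%, again of the opposite sign. By the same exact test Igf2 differed by 2.20 points (−0.257 to 4.64, adjusted p = 0.282), Meg3 by −0.752 points (−3.35 to 1.84, adjusted p = 0.818) and Rasgrf1 by 0.612 points (−1.26 to 2.48, adjusted p = 0.775). No cytosine of the 5 spans was called. At an unadjusted p under 0.05 there were 0 at H19, 5 of 196 at Igf2, 3 of 129 at Dlk1, 8 of 232 at Meg3 and 2 of 375 at Rasgrf1, against 1.46% of all cytosines. These counts are small, cytosines of 1 span share reads, and their departure from the share of all cytosines was not tested.

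**Figure D5:**
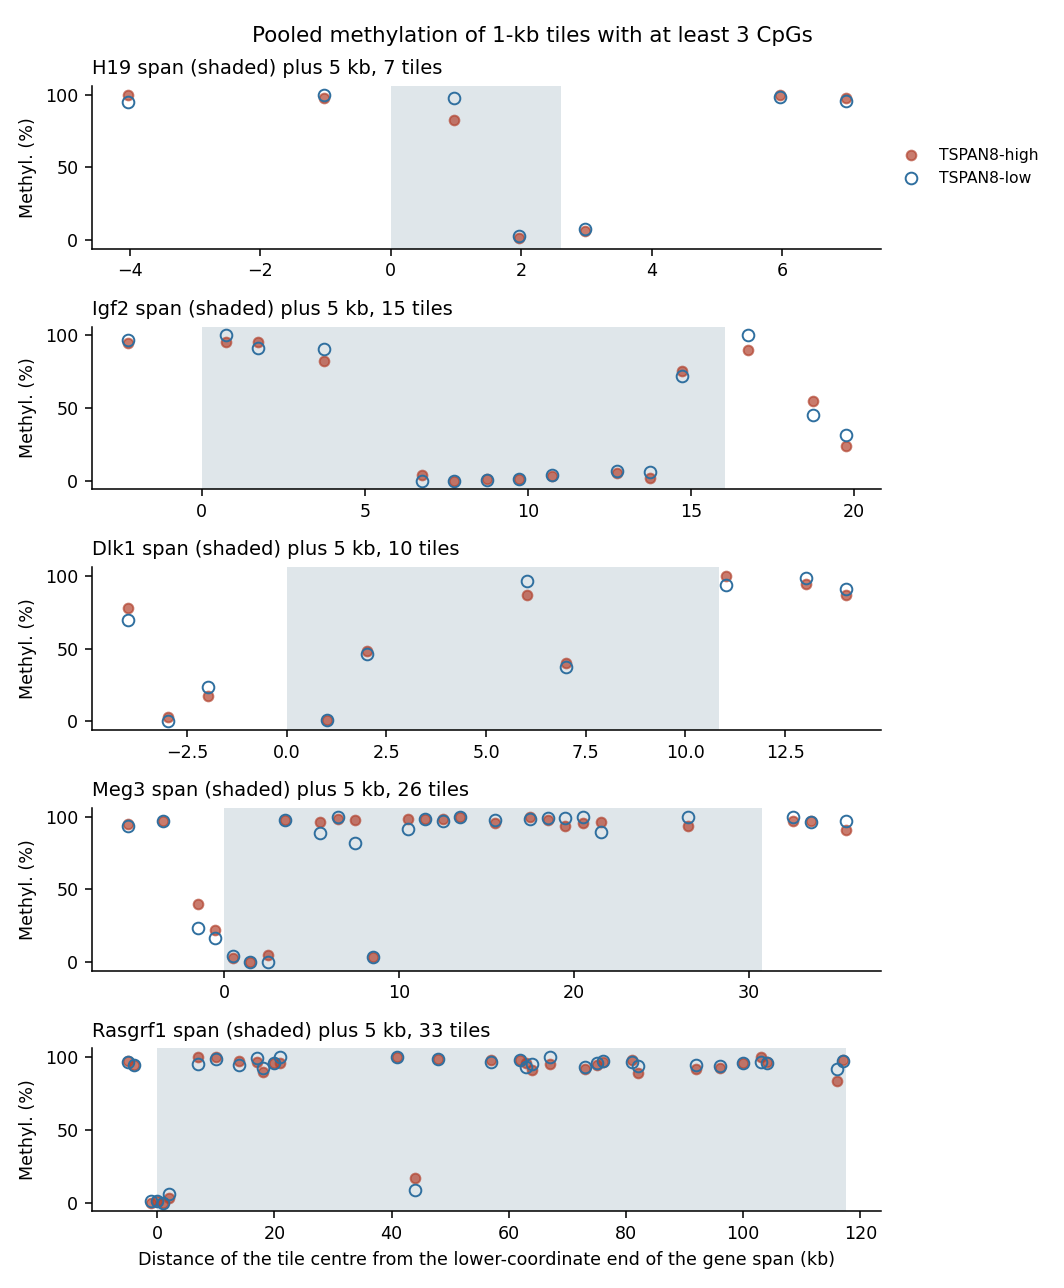
Pooled methylation (%, vertical axis) of 1-kb tiles with at least 3 CpGs against the distance in kb from the lower-coordinate end of each gene span (shaded); filled red points are TSPAN8-high and open blue circles TSPAN8-low. Each gene has tiles near 0 and tiles near 100%, and the last 2 tiles of the H19 panel belong to the control region.

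Within the genes, tiles were mostly either unmethylated or methylated. In H19, the tile from 142577001 was at 1.47% and 2.44%, and its neighbour from 142576001 at 82.3% and 97.7% (Fisher's exact test, p = 0.0135, adjusted p = 0.372). In Meg3, the tiles from 109541001 and 109549001 were at 2.63% and 4.15% and at 3.11% and 3.18%, and the tile just before the latter, from 109548001, was at 97.4% and 81.8%. The Meg3 tile from 109560001 was at 93.4% and 99.0% (Fisher's exact test, p = 0.00298, adjusted p = 0.200). Dlk1 held 2 tiles of middle level in both libraries, 48.7% and 45.9% from 109454001 and 39.9% and 37.6% from 109459001. Beyond the higher-coordinate end of Igf2, the tile from 142669001 was at 54.8% and 44.8% (Fisher's exact test, adjusted p = 0.557) and that from 142670001 at 23.8% and 31.2%, opposite in direction. In Rasgrf1, the tiles from 89910001 and 89911001, next to the start, were at 0% in both libraries and at 3.16% and 5.71%, and a tile far from the start, from 89953001, was at 16.8% and 8.74%. None of these tiles was called by Fisher's exact test with Benjamini-Hochberg adjustment.

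Of 23 neighbouring genes of the 3 domains, 0 were called in either direction, and none had an adjusted p under 0.05. Over all genes the shares called were 0.452% (higher) and 0.689% (lower). The median difference of the 23 was 0.280 points, against −0.468 points over all genes tested, with 12 higher and 11 lower. Their range ran from −5.01 points at Mrpl23, which encodes a mitochondrial ribosomal protein (54.7% and 59.7%), to 3.62 points at Ctsh, which encodes the protease cathepsin H (54.2% and 50.6%). In the H19-Igf2 domain the other neighbours with the most reads were the antisense gene Igf2os (17.2% and 16.2%), which overlaps Igf2 and shares its cytosines, the transcription factor gene Ascl2 (15.3% and 14.7%) and Lsp1 (88.3% and 91.1%). In the Dlk1-Meg3 domain they were Wdr25 (81.9% and 83.2%), Begain (24.9% and 24.1%), Wars, which encodes a tryptophan tRNA ligase (68.1% and 71.2%), and Yy1, a zinc finger factor gene (31.9% and 30.7%). The maternally expressed Rian and Mirg and the paternally expressed Rtl1 of that domain had high pooled levels, at 96.1% and 96.8%, 95.2% and 96.8%, and 95.7% and 96.8%. The span of Rtl1 overlaps those of Meg3 and Rian, so their values are not separate. Dio3, which encodes a thyroid hormone deiodinase and is preferentially expressed from the paternal copy, was at 302 of 1973 reads (15.3%) and 287 of 1910 (15.03%). In the Rasgrf1 domain, Adamts7 was at 51.3% and 49.2%, Morf4l1 at 73.6% and 71.6% and Tmed3 at 41.3% and 45.1%.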

How the data were processed

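Per the labels' protocols, DNA was cut with BfaI, MseI and MspI, treated with bisulfite and sequenced as 50-base paired reads. The authors deposited 1 table with total read counts and a methylation fraction for each library, a difference as a ratio between 0 and 1 and a p-value for each cytosine. The submitters' processing notes name builds mm10 and mm9. The aligner for bisulfite reads is not given in the sources used here. Of the listed cytosines inside RefSeq promoter windows (GRCm38.p6), 232506 of 232506 were C on their strand. A cytosine counts as listed only where each library read it 5 times or more, a limit set here.

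Methylated reads were rebuilt at each cytosine as the fraction times the total reads, rounded to a whole number. They were then summed over cytosines. A read covering several CpGs counts at each, so p-values and intervals are too small. Levels have exact Clopper-Pearson and differences Newcombe intervals (95%). A count of 0 was given an upper limit of 3 reads. Two-sided Fisher's exact tests, adjusted by Benjamini-Hochberg over the whole table, covered cytosines, 1-kb tiles with at least 3 CpGs and gene spans plus 5 kb with at least 5 CpGs (numba 0.67.0, scipy 1.17.1). PCR duplicates cannot be told apart in these counts. The tile test was tested on simulated data, with changes made only in a small part of the tiles, all of intermediate level. Spans of overlapping genes share cytosines. The gene table gives no exons.

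Named were the 5 genes and, in each control region, the highest, lowest, most raised and most lowered tile and the 2 most raised and 2 most lowered cytosines with at least 10 reads; up to 4 neighbours a domain with the most reads. Tiles, cytosines and neighbours beyond this were chosen after their values were seen. Members and lists were chosen with earlier results of these data known. The interval between Gpr1 and Zdbf2 was not run, since their spans overlap.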

Additional observations from a re-analysis of the deposited data

How the results depend on the processing

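No paired analysis was possible because each group has 1 library. Only 8, 15 and 16 cytosines of H19, Dlk1-Meg3 and Rasgrf1 had at least 10 reads in both libraries. With at least 20 reads, H19 kept 2 cytosines, at 95.3% (TSPAN8-high) and 100% (TSPAN8-low), a difference of −4.69 points (−12.9 to 2.43). Dlk1-Meg3 kept 7 and was at 98.5% in TSPAN8-low, and Rasgrf1 kept none. With 1 CpG kept per 100 bp, H19 was at 100% in both and Rasgrf1 at 77.9% and 75.9%; with at least 10 reads Rasgrf1 was at 79.3% and 76.0%. By strand, the H19 difference was −3.12 points (plus, −8.79 to 1.20) and 5.50 points (minus, 0.682 to 11.5). Within 500 bp of the start, in place of 1 kb, the near end of H19 was at 2.06% in TSPAN8-high, Igf2 start 2 at 0.529% in TSPAN8-low, Igf2 start 4 at 3.70% and 0%, Dlk1 at 0% and Meg3 start 2 at 100% in TSPAN8-low, and Rasgrf1 at 0% in both. The added start of Snrpn gave 1.88% and 1.08% and that of Mest 1.65% and 2.05%. Over the whole table, 153 cytosines were called with at least 10 reads and 177 with no minimum difference, against 75. With 1 CpG per 100 bp 97 tiles were called, against 1570, and with no minimum difference 5364 genes, against 530, among them 1 of the 5, Dlk1 (6.16 points), whose adjusted p by Fisher's exact test was 0.0779 with at least 10 reads and 0.109 without the 5 kb. The differences of 2 gene spans turned sign: Meg3 was at 0.460 points with at least 10 reads (adjusted p = 0.948), and Rasgrf1 at −0.114 points without the 5 kb (adjusted p = 1), both by Fisher's exact test. Causes were not tested beyond what each setting leaves out. Of the control-region differences 14 moved by less than their interval and 3 by more; of the levels 13 and 9.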
